A study of Mus musculus with 6 samples.

Results

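Peaks at the genes of 6 nuclear receptors were examined in DNA that Tug1 probes pulled down from cultured mouse podocytes, the epithelial cells of the kidney filter. Tug1 is a long noncoding RNA. The genes were the peroxisome proliferator-activated receptors Ppara, Ppard and Pparg and the oestrogen-related receptors Esrra, Esrrb and Esrrg, 6 of 21887 protein-coding genes in the RefSeq annotation of mm10. They were chosen by name, as partners of the coactivator PGC-1alpha, with earlier results of these data known. Every peak inside a gene or within 50 kb of either end was taken. This gave 92 of the 113114 regions of the series, a region being a set of peaks that overlap by at least 1 bp in any of the libraries.

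The podocytes were immortalised with a temperature-sensitive SV40 T antigen, expanded at 33 degrees (passage 10 to 12) and then kept at 37 degrees for 10 days to differentiate, with no further treatment and no genetic change named in the labels. In chromatin isolation by RNA purification (ChIRP-seq), biotinylated oligonucleotides complementary to an RNA pull down that RNA with its crosslinked chromatin, and the DNA is sequenced. The 48 Tug1 probes were split into an even and an odd set that share no probe, each used in 2 pulldowns, and each pulldown was called against 1 of 2 input DNA libraries. An unrelated probe set was not analysed here, and no values of the inputs were used. The labels do not say whether the pulldowns came from separate cultures, so the spread between replicates may be technical. The lists held 26529 to 40725 peaks. Read depth is unknown from peak lists, and a list of DNA peaks carries no expression with which the cell label could be checked.

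PPARs are receptors for fatty acids and their derivatives. They bind DNA as partners of the retinoid X receptors at a repeated six-base motif with a single base between the copies, and they switch on genes of fatty acid uptake, storage and oxidation. ERRs resemble oestrogen receptors but bind no natural oestrogen; they recognise the same motif with a short extension, and with PGC-1alpha they drive genes of mitochondrial respiration. PPARalpha is best known for fatty acid oxidation in liver, heart and kidney tubule, PPARdelta is widely expressed, and PPARgamma is the master regulator of fat cells and the target of the thiazolidinedione drugs. ERRalpha and ERRgamma are prominent in tissues of high oxidative demand, and ERRbeta in trophoblast and pluripotent stem cells.

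The reference table lists 12 promoters for the 6 genes, each from 250 bases before to 50 bases after an annotated start, and 1 of them lay under a peak. This was the promoter of Esrrg that lies farthest into the gene, with its start 388821 bp past the first one. The peak of even replicate 2 at chr1:187997481-187998004 covered it from end to end. The score of that peak was 148, at percentile 10.3 of its list, and no other library had a peak there. Of 17492 protein-coding genes with a listed promoter, 5.41% had at least 1 promoter touched by a region, and 1 of the 6 receptor genes did. Below, the 250 bases before 4 starts are printed 5′ to 3′ from RefSeq (GRCm38.p6, the mm10 assembly, plus strand in each case): the Esrrg promoter because a peak covered it, that of Ppard because a region of both probe sets lay closest to its start, and 2 of Pparg because they alone held the receptor motif AGGTCA. Capitals mark that motif.
Esrrg, chr1:187997577-187997826: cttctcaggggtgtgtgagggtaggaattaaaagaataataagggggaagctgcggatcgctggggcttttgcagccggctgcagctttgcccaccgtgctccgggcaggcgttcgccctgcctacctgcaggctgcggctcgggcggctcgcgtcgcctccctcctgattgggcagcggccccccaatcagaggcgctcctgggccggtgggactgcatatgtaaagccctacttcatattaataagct
Ppard, chr17:28232504-28232753: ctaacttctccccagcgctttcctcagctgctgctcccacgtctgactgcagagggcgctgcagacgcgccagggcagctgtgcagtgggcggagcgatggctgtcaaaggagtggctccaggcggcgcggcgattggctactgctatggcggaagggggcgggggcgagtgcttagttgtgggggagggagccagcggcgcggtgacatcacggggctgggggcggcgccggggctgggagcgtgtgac
Pparg, first start, chr6:115360894-115361143: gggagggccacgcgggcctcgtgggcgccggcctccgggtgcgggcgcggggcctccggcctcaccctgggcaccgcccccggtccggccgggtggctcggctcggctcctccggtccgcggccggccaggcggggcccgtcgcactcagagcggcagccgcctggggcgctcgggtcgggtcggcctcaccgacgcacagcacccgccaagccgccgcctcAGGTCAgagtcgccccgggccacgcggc
Pparg, start 1205 bp further, chr6:115362099-115362348: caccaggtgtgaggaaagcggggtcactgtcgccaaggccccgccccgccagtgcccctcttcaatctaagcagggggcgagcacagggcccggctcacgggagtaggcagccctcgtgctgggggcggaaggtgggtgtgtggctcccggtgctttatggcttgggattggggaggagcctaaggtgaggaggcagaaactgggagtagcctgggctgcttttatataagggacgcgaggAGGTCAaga

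Motifs that these receptors are known to bind were searched on both strands of each promoter. The receptor motif AGGTCA was in 2 of the 12 promoters of the receptor genes and in 16.3% of all 32851 promoters listed. It began 28 bases before the first Pparg start and 9 bases before the next. The extended ERR motif TCAAGGTCA, which contains the first motif, was in none of the 12 and in 0.423% of all promoters, and the direct repeat of AGGTCA with a single base between the copies was in none and in 0.0396%. GC content of the 12 promoters ran from 40.3% at the third Pparg start to 80.3% at the first, against a median of 52.7% over all promoters (quartiles 45.7% and 61.7%). A match of letters is a description of the window, and peak sequences outside promoters were not used here.

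All 6 genes had at least 1 peak of every library in their windows, as had 50.4% of protein-coding genes. That share was not adjusted for length, and the 6 are longer (median 100734 bp, against 17169 bp over all genes). The peaks were scattered: 78 of the 92 regions (84.8%) came from 1 library, 10 from 2, 3 from 3 and 1 from all 4, against 88.6% from 1 library over the whole series. Of the 10 regions in 2 libraries, 5 joined both even and 2 joined both odd libraries. Regions that joined an even with an odd library numbered 7 (7.61% of the regions, against 7.05% in the series). Peaks of even replicate 1 were in 6 of these 7, of even replicate 2 in 3, of odd replicate 1 in 4 and of odd replicate 2 in 6. Inside the genes lay 49 of the 92 regions and outside them 43.

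**Figure D1:**
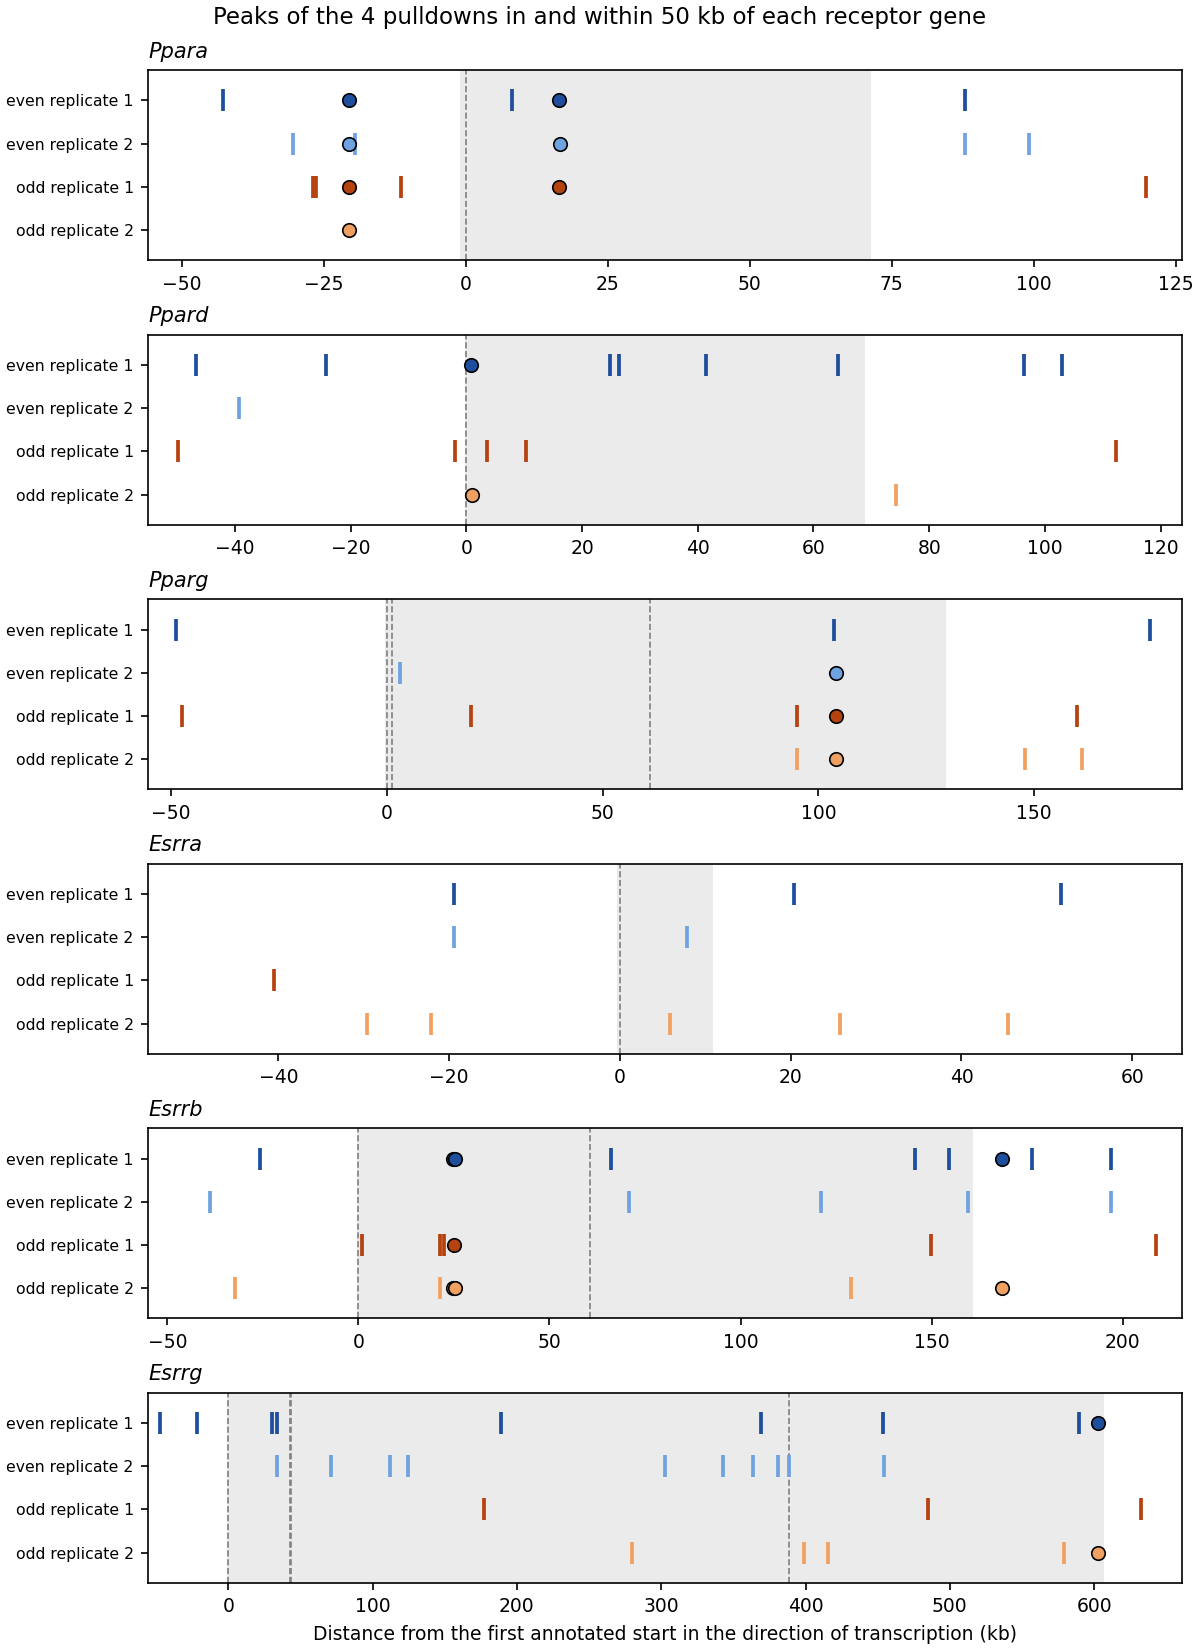
Peaks of the 4 libraries (rows) in and around the 6 receptor genes, plotted by distance in kb from the first annotated start in the direction of transcription; grey marks the gene, dashed lines mark annotated starts, black-rimmed circles mark peaks in regions with both even and odd libraries and ticks mark all other peaks. The one column of circles in all 4 rows lies 20234 bp before the start of Ppara, and Esrra has no circle.

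A region of both probe sets was present in the window of 5 of the 6 genes, Ppara and Esrrb with 2 each and Ppard, Pparg and Esrrg with 1 each, and Esrra had none. Over all protein-coding genes the share with such a region was 38.6%, but most of those genes are shorter: median length is 17169 bp over all and 100734 bp over the 6. Among the 200 protein-coding genes nearest in length to each receptor gene, the share with such a region ran from 39.5% (Ppara) to 81.0% (Esrrg), which adds up to 3.08 of 6 genes. Genes of the same chromosome within 2-fold of the length gave 3.17 of 6. Inside the gene itself, 5 of 6 had such a region, against 12.4% of all protein-coding genes and 1.93 of 6 by like length. Regions of 3 or 4 libraries lay in the windows of Ppara, Pparg and Esrrb, 3 of 6 against 17.3% of all protein-coding genes and 1.54 of 6 by like length. The window count depended on single libraries, as did the share of all genes, 38.6% with every library. Without even replicate 1 the count was 2 of 6 (13.7% of all genes), leaving Ppara and Pparg. Without odd replicate 2 it was 3 of 6 (25.7%), leaving Ppara, Pparg and Esrrb. These counts describe 4 lists and were not tested.

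**Figure D2:**
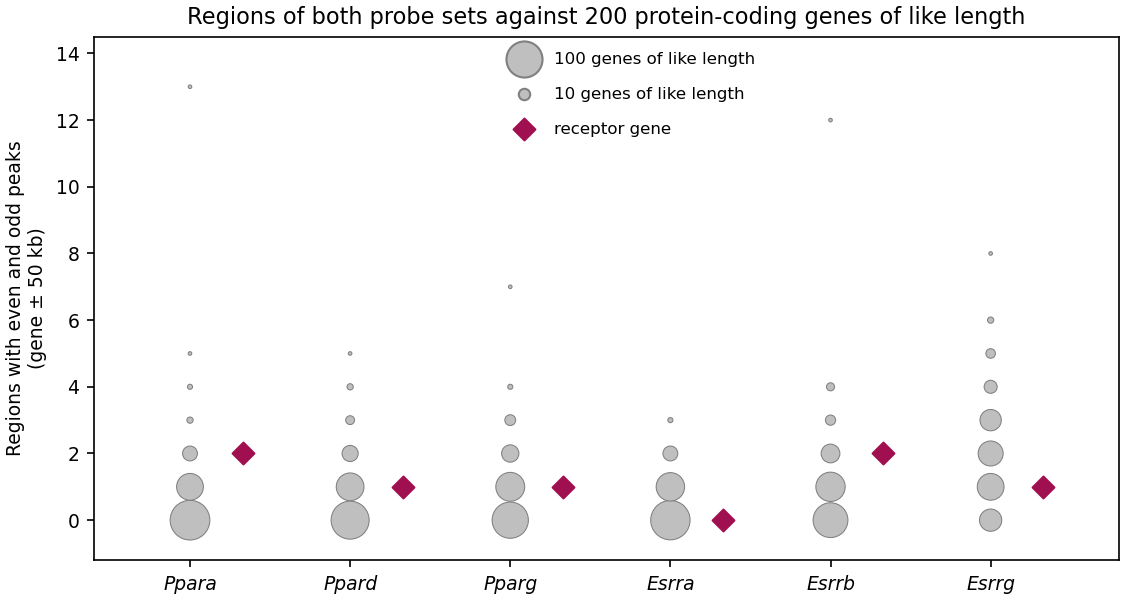
Number of regions with both even and odd peaks in the gene and 50 kb to either side (y axis), for each receptor gene (diamond) and for the 200 protein-coding genes nearest to it in length (grey circles, area by number of genes). Ppara and Esrrb, with 2 regions, lie above most genes of like length, and Esrrg, with 1, lies below 53.5% of them (36.2% among such genes on its own chromosome, not plotted).

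Ppara (gene ID 19013, chromosome 15, 85734910 to 85806851, 71942 bp, plus strand) had the region found in most libraries. It lay before the gene, at chr15:85715052-85715542, 20234 bp upstream of the annotated start and 19368 bp from the low-coordinate gene end. The 4 peaks there were nearly the same interval, 479 bp wide in odd replicate 1, 491 bp in even replicate 1, 473 bp in odd replicate 2 and 431 bp in even replicate 2, and 431 bp were common to all of them. Its score was 1235 in odd replicate 2, at percentile 99.4 of that list, and 302 in even replicate 2, at percentile 59.1. In both replicate 1 lists the score was 3100, the value at which most of their peaks pile up, so it ranks little there. In even replicate 1, 80.5% of the list was at or above 3100, and the percentile was 58.8, the mean rank of the tie. In odd replicate 1, 99.9% of the list was at or above 3100, and the peak ranked in the middle. Against the 748 regions found in all 4 libraries, the odd replicate 2 score was above that of 85.0% and the even replicate 2 score above that of 27.4%. No annotated gene held the region, and the nearest was Gm34622, 3113 bp away. The share of protein-coding genes with a region of all 4 libraries in such a window was 4.17%, and 4.00% of the 200 genes of like length and 9.09% of the 165 of like length on chromosome 15 had one.

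A second region of both probe sets lay inside Ppara at chr15:85751964-85752724, 16188 bp past the start. Peaks of both even libraries and of odd replicate 1 met there, with scores of 3100, 287 (percentile 55.6) and 3100 in even replicates 1 and 2 and odd replicate 1, and odd replicate 2 had none. Both even libraries also shared a region on the far side, 16645 bp past the gene, with a score of 232 in even replicate 2. The whole window held 5 and 6 peaks in even replicates 1 and 2, and 6 and 1 in the odd ones, so odd replicate 2 was low, and its only peak was the one in the region of all 4 libraries. Its density there was 0.291 times that of chromosome 15 in the same list, against 1.24, 2.22 and 2.38 times in even replicates 1 and 2 and odd replicate 1. With 2 regions of both probe sets, Ppara exceeded 88.0% of genes of like length, but 69.1% of those on chromosome 15, where all lists are dense (73.9 peaks per Mb over the 4 lists together, against 45.7 on chromosome 6, which holds Pparg).

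Ppard (gene ID 19015, chromosome 17, 28232754 to 28301469, 68716 bp, plus strand) had its region of both probe sets close to its only listed start. At chr17:28233335-28233882, from 581 bp past the start, a peak of even replicate 1 (score 3100) met one of odd replicate 2 (score 348, percentile 78.0). They overlapped by 93 bp only, and the region is lost when an overlap of 50% of both peaks is asked. Among 17492 protein-coding genes with a listed start, 1.77% had a region of both probe sets within 1 kb of one, and Ppard was the only receptor gene of the 6 that did. Odd replicate 1 had peaks on either side of this region, 1768 bp before the start and 3496 bp past it, but none in it. Even replicates 1 and 2 had 9 peaks and 1 peak in the window and the odd replicates 5 and 2, so the even libraries stood at the 2 extremes and the probe sets overlapped. The total of 17 peaks exceeded that of 90.5% of genes of like length, whereas the single region of both probe sets exceeded 55.5%.

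Pparg (gene ID 19016, chromosome 6, 115360879 to 115490404, 129526 bp, plus strand) had a region of 3 libraries late in the gene. At chr6:115465055-115465388, 103911 bp past the first start and 42989 bp past the third, the score was 517 in even replicate 2 (percentile 89.1), 174 in odd replicate 2 (percentile 31.6) and 3100 in odd replicate 1. Even replicate 1 had no peak in it but had one ending 175 bp before it. A region of both odd libraries lay at chr6:115455954-115456411, with 475 in odd replicate 2 (percentile 90.5). Near the starts, even replicate 2 alone had a peak, 1761 bp past the second, with a score of 573 (percentile 92.2). The window held 3 and 2 peaks of even replicates 1 and 2, and 5 and 4 of the odd ones. Pparg was the only gene of the 6 at which both odd lists held more peaks than both even lists. The same held for 8.12% of protein-coding genes, a share not adjusted for length.

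Esrra (gene ID 26379, chromosome 19, 6910977 to 6922048, 11072 bp, minus strand) is the shortest of the 6 and the gene of the best-known partner of PGC-1alpha. No even peak met an odd one in its window, as was the case for 59.5% of genes of like length and 49.2% of such genes on chromosome 19. Inside the gene lay a peak of even replicate 2 (score 202, percentile 28.1) and, 1724 bp further, one of odd replicate 2 (score 253, percentile 58.7). The one region of 2 libraries joined both even replicates upstream, 18966 bp from the gene and inside Gpr137; its score was 3137 in even replicate 1 (percentile 98.6) but 103 in even replicate 2 (percentile 2.94). Even replicates 1 and 2 had 3 and 2 peaks in the window and the odd ones 1 and 5, with odd replicates at both extremes.

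Esrrb (gene ID 26380, chromosome 12, 86361117 to 86521628, 160512 bp, plus strand) had the highest pooled peak density of the 6 relative to its chromosome. Over all lists together it was 2.29 times that of chromosome 12, and Ppard was next with 2.02 times that of chromosome 17. By list, the density of Esrrb was 2.55 and 2.21 times for even replicates 1 and 2 and 2.31 and 2.01 times for the odd ones. No other gene of the 6 was above 2 in every list, but in each single list another one exceeded Esrrb. Ppard did so in even replicate 1 (3.21) and odd replicate 1 (2.64), Ppara in even replicate 2 (2.22) and Esrra in odd replicate 2 (2.08). The 26 peaks exceeded those of 95.0% of genes of like length and of 97.5% of such genes on chromosome 12. The widest shared region, 948 bp at chr12:86385766-86386713, lay 24649 bp past the first start and chained 2 peaks of even replicate 1, 1 of odd replicate 1 and 2 of odd replicate 2 (scores up to 389 in odd replicate 2, percentile 83.3). Earlier in the gene, at chr12:86382233-86382622, both odd libraries shared a region (score 437 in odd replicate 2, percentile 87.9). A second region of both probe sets, of even replicate 1 and odd replicate 2, lay 7685 bp past the gene (score 177, percentile 34.1). Near the first start, odd replicate 1 alone had a peak, from 575 bp past it. In all, the window held 9 and 5 peaks of even replicates 1 and 2 and 6 of each odd replicate, so the probe sets overlapped.

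Esrrg (gene ID 26381, chromosome 1, 187608510 to 188214885, 606376 bp, plus strand) is the longest of the 6 and held 24 regions, 21 of them inside the gene. Only 1 had both probe sets, at chr1:188211587-188211914, 2971 bp before the far end of the gene, with peaks of even replicate 1 (score 3100) and odd replicate 2 (score 198, percentile 42.4). Genes of like length had a median of 2 such regions (quartiles 1 and 3), and 53.5% had more and 19.0% fewer. On chromosome 1 such genes had a median of 1, with 36.2% having more and 36.2% fewer, so Esrrg was in the middle of them. Even replicates 1 and 2 had 9 and 10 peaks in the window and the odd ones 3 and 5. Both even lists thus held more than both odd lists, which was so at no other gene of the 6. Such was the case at 10.5% of protein-coding genes, a share not adjusted for length. Both even libraries shared 2 regions in the gene, at chr1:187642690-187643108 and chr1:188062445-188063214, and the latter had the highest score near these genes in even replicate 2, 643 (percentile 94.7). The odd libraries shared none.

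**Figure D3:**
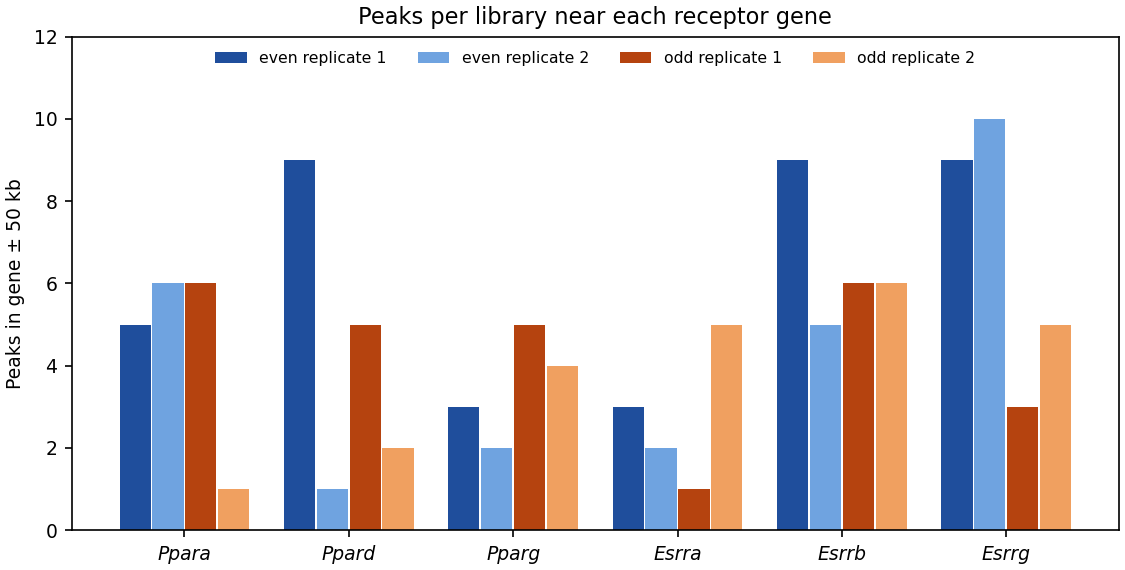
Number of peaks in each gene and 50 kb to either side (y axis) for the 4 libraries (bars). Both even libraries exceed both odd ones at Esrrg and both odd exceed both even ones at Pparg, while the probe sets overlap at the other 4 genes.

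Summed over the 6 windows, even replicates 1 and 2 had 38 and 26 peaks and the odd replicates 26 and 23. The means were 32.0 ± 8.49 and 24.5 ± 2.12 (SD, n = 2 each), a difference of 7.5 (two-sided exact permutation p = 0.667, in a design of 2 against 2 libraries that cannot reach 0.05). Per 10000 peaks of its list, even replicates 1 and 2 had 9.33 and 9.80 and the odd replicates 9.27 and 6.58, so odd replicate 2 held fewer than the rest and the difference between sets was 1.64 (two-sided exact permutation p = 0.33, the smallest possible). The order of the 6 genes by total peaks was Esrrg 27, Esrrb 26, Ppara 18, Ppard 17, Pparg 14 and Esrra 11. Neighbours in this order differed by 1 to 8 peaks, and their counts per library overlapped in each case. The windows differ in length, and per Mb of window the order was Ppara 105, Ppard 101, Esrrb 99.8, Esrra 99.0, Pparg 61.0 and Esrrg 38.2 peaks over the 4 lists.

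Scores near the receptor genes lay close to the medians of their lists. In even replicate 2 the median was 247 over 26 peaks against 265 over the list, and in odd replicate 2 it was 224 over 23 peaks against 221. The highest were 643 in even replicate 2, at Esrrg, and 1235 in odd replicate 2, at Ppara. At or above 3100 were 34 of 38 peaks near these genes in even replicate 1 (80.5% of the whole list) and 26 of 26 in odd replicate 1 (99.9%). Widths also stayed near the lists' medians, at 409 bp (list 399) and 400 bp (list 404) for even replicates 1 and 2, and at 236 bp (list 247) and 365 bp (list 407) for the odd ones.

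**Figure D4:**
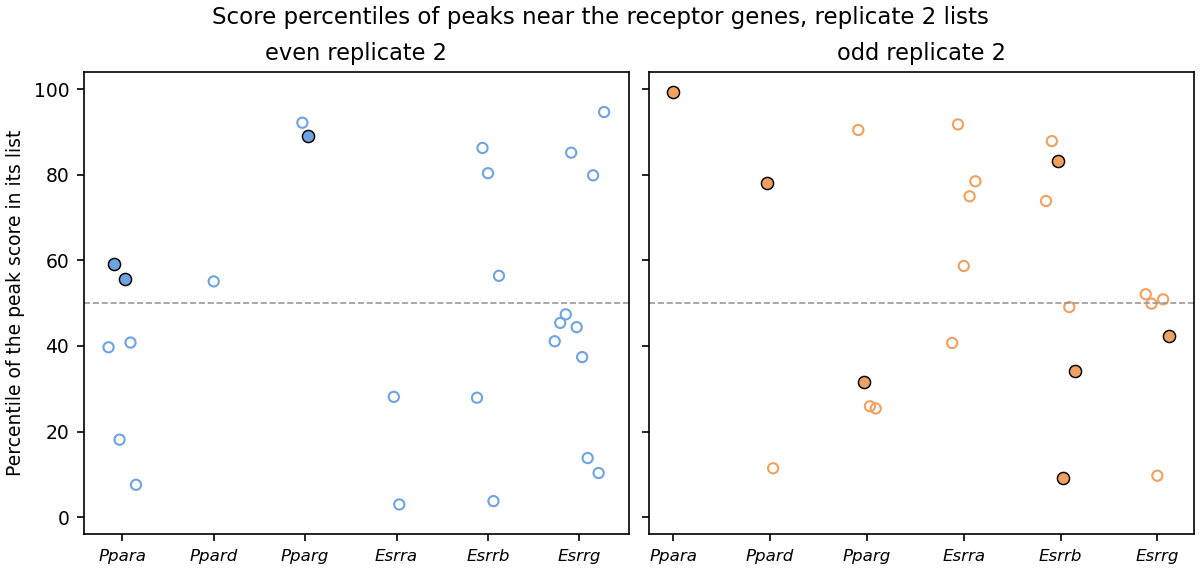
Percentile of each peak's score within its own list (y axis) near the 6 genes, in even replicate 2 (left) and odd replicate 2 (right); filled points belong to regions with both even and odd libraries and the dashed line marks the middle of the list. Points run from percentile 2.94 to 94.7 in even replicate 2 and from 9.18 to 99.4 in odd replicate 2, and the highest is the region upstream of Ppara.

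Genes that work with these receptors were counted in the same way, from lists drawn up from textbook knowledge with earlier results of these data known. Of 14 coregulators, 9 had a region of both probe sets within 50 kb, against 38.6% of all protein-coding genes, and none had a region of all 4 libraries, against 4.17%. In 4 of the 14 windows a region of 3 libraries was found, where 17.3% of all genes had one of 3 or 4. By the naming rule 1 region per gene is placed here. These regions lay inside Ncoa1 and Ncoa2, which code for steroid receptor coactivators, and inside Ppargc1a, the gene of PGC-1alpha, and 43229 bp from Crebbp, the gene of a histone acetyltransferase. The windows of Ncoa1 and Crebbp held 2 such regions each. Median length in this list was 113774 bp, against 17169 bp over all genes, and longer genes hold more regions. Among the retinoid X receptors, 2 of 3 had a region of both probe sets (38.6% of all genes). In Rxra, 1 of the 3, a region of 3 libraries lay inside the gene, at chr2:27753856-27754301 (17.3% of all genes had one of 3 or 4 libraries in their windows).

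Target genes were shorter than the coregulators, and a smaller share than the 64.3% of coregulators had a region of both probe sets. Median length was 14954 bp for PPAR target genes and 18099 bp for ERR and PGC-1 target genes, near the 17169 bp of all genes. Of 26 PPAR target genes, 11 (42.3%) had a region of both probe sets, close to the 38.6% of all genes, and 4 of 26 had one of 3 libraries, where 17.3% of all genes had one of 3 or 4. These were Adipoq, the adiponectin gene, 2896 bp away, Hadha, of mitochondrial fatty acid oxidation, 45773 bp away, and the uncoupling protein genes Ucp2 and Ucp3. Ucp2 and Ucp3 share a single region at chr7:100446170-100446579, 46758 bp from Ucp2 and 26412 bp from Ucp3. Of 20 ERR and PGC-1 target genes, 4 had one, a lower share than that of all genes, and 2 of the 20, again beside 17.3% of all genes, had one of 3 libraries. These lay 15667 bp from Cox4i1, a cytochrome oxidase subunit gene, and 27349 bp from Tfb2m, a mitochondrial transcription factor gene. No target gene of either list had a region of all 4 libraries in its window, where 4.17% of all protein-coding genes had one.

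Of the 43 other nuclear receptor genes, a list that includes the 3 retinoid X receptors already counted, 22 (51.2%) had a region of both probe sets, against 38.6% of all protein-coding genes, and 5 a region of all 4 libraries, against 4.17%. Their median length was 41370 bp, against 17169 bp over all genes, and these shares were not adjusted for length. Inside the gene these lay at chr9:68812870-68813335 in Rora, a receptor of the circadian clock, and at chr10:4617266-4617724 in Esr1, the gene of oestrogen receptor alpha. Nr5a1 and Nr6a1 share a region outside both genes, at chr2:38673256-38673947, 18709 bp from Nr5a1 and 49422 bp from Nr6a1. The remaining gene of the 5, outside the naming rule, was Hnf4a. The 5 genes thus stand for 4 separate regions. Other receptor genes were also ranked by Euclidean distance to each of the 6 over the window peak counts of the 4 libraries. The nearest were Rorb (2.65) and Nr5a1 (4.69) for Ppara, Vdr (4.24) and Nr4a1 (4.80) for Ppard, and Rxrb and Nr0b2 (1.73 each) for Pparg. For Esrra they were Nr5a2 (1.00) and Rarg (2.00), for Esrrb Nr6a1 (3.16) and Vdr (3.61), and for Esrrg Esr1 (5.74) and Vdr (7.35). Length was not adjusted for, and it could differ widely, as between Pparg (129526 bp) and Rxrb (6592 bp) or Nr0b2 (3311 bp).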

How the data were processed

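Peaks were deposited as 1 list per pulldown library (2 even, 2 odd). The submitters' processing notes name Bowtie2 2.1.0 and the build mm10. Each list was called against 1 input, inputs 1 and 2 for replicates 1 and 2, per the file names, without pooling. Peak names start with MACS; caller version, threshold and treatment of duplicate reads are not stated in labels or files. The score of each peak is the authors' own, on a scale the deposited files do not state, and was used only within a list, as a percentile by mean rank. A joined list of all peaks held the same rows and was not used.

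Overlapping peaks of any libraries (1 bp or more) were joined into regions. Positions are 1-based on mm10. Genes and promoters came from RefSeq tables of GRCm38.p6, without exons; all 6 receptor genes matched by symbol, and 2 symbols of the other lists matched by synonym. Exons, introns and UTRs were not separated. The 200 protein-coding genes nearest in length, and those of the same chromosome within 2-fold of the length, gave the comparison. Members and lists were chosen with earlier results of these data known. The naming rule took the 6 genes, up to 4 genes per other list with a region of 3 or 4 libraries, the 2 receptor genes with the nearest counts, and hosts of shared regions. Alternatives were other windows (gene body, 5 kb, 100 kb), peaks at or above the median score, a reciprocal overlap of 50%, a replicate block, counts per 10000 peaks, and each library left out. Counting was tested on simulated data, where 300 of 300 windows equalled a direct count. Python 3.11.15, numpy 2.4.6, pandas 2.3.3 and matplotlib 3.10.9 were used.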

Additional observations from a re-analysis of the deposited data

How the results depend on the processing

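The number of receptor genes with a region of both probe sets, 5 with 50 kb, was also 5 in the gene body, with 5 kb and with 100 kb (12.4%, 16.0% and 55.3% of all genes), and 4 with peaks at or above the median score (31.5%) or with a reciprocal overlap of 50% (31.7%). Leaving out 1 library at a time gave 2 to 5 genes and 3 to 7 regions, against 7 in all. The lowest values came without even replicate 1, with 2 genes (13.7% of all genes). Without even replicate 2 there were 4 genes (35.7%) and without odd replicate 1 there were 5 (28.4%). The total of 7 regions without odd replicate 1 hides shifts between genes. Ppara fell from 2 regions to 1, and Esrrb rose from 2 to 3 as its chained region of 948 bp split. Without odd replicate 2 there were 3 genes (25.7%) and 4 regions. The number of regions was 5 to 10 under the other settings. The difference in peaks between even and odd libraries kept its sign in every setting run, from 1.5 to 13.5 with 1 library left out, and never passed a threshold of 0.05, which 4 libraries cannot reach. With a replicate block it was 7.5 (12 for replicates 1 and 3 for replicates 2; exact sign-flip permutation p = 0.5, the smallest possible). Same-numbered libraries shared their deviations weakly (r = 0.0965 across 21887 gene windows, which are not independent). They were, however, called against the same input, and the scores of both replicate 1 lists pile up at 3100. The replicate block kept this pairing, and the main permutation did not. Against genes of the same chromosome, Esrrg exceeded 36.2% in place of 19.0%. Peak lists carry no read depth, which limits every comparison of peak numbers.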

Other observations

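The windows of the receptor genes also take in neighbours. Before Ppara, even replicate 2 had a peak in Lncppara, the host gene of a let-7 microRNA, with a score of 231 (percentile 39.7), and odd replicate 1 had 2 peaks in Gm34622 and 1 in Gm46529. Around Ppard, single-library peaks lay in Zfp523 (3), Def6 (1), Rpl10a (1) and Tead3 (2). Upstream of Esrra, odd replicate 2 had 2 peaks in Bad, which codes for a regulator of cell death, with scores of 328 and 350 (percentile 78.5 for the latter), and odd replicate 1 had 1 in Plcb3. Each of these peaks was a region of 1 library, as were 88.6% of regions over the whole series.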
